A study of Mus musculus with 6 samples.

Results

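The chemokine genes of inflamed mouse skin described here are the neutrophil-attracting CXC ligands Cxcl1, Cxcl2, Cxcl3 and Cxcl5 and the inflammatory CC ligands Ccl3, Ccl4 and Ccl20. They were taken by gene symbol, not by a threshold on a measured value, though with earlier results of these data known, and are 7 of the 55487 genes in the deposited count table. The tissue was whole dorsal skin at day 2, from 3 libraries labelled DPCP+Codrosome and 3 labelled DPCP+Encapsome, written below as clodrosome and encapsome skin. DPCP, diphenylcyclopropenone, is a contact sensitiser that sets off contact hypersensitivity, and skin of both groups had received it, so no untreated skin enters any comparison. Clodrosome is a liposome loaded with clodronate, which kills the phagocytes that engulf it, and Encapsome is the empty liposome. Strain, sex, age, liposome route and dose, and whether each library is 1 animal are not given in the sources used here; p-values therefore measure the spread between libraries, which may be partly technical.

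Chemokines are small secreted proteins that steer leukocytes along concentration gradients. CXCL1, CXCL2, CXCL3 and CXCL5 carry the ELR motif and act on CXCR2, the main chemokine receptor of mouse neutrophils. CCL3 and CCL4, the macrophage inflammatory proteins 1-alpha and 1-beta, draw monocytes, T cells and other leukocytes, CCL3 in part through CCR1, whereas CCL20 acts on CCR6 of interleukin-17-producing T cells and dendritic cells. In skin, keratinocytes, fibroblasts, macrophages, mast cells and neutrophils themselves can make several of these ligands, and transcription factors of the NF-kB family drive most of them.

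The libraries held between 26649396 and 116965654 counts, and clodrosome A was the deepest. The 3 libraries of a group are called A, B and C because the column names do not carry the replicate numbers of the titles. Macrophage genes were 10 of 10 lower in clodrosome skin, with summed levels of 522 to 1337 CPM (counts scaled to the library total) in clodrosome skin and 3424 to 4045 CPM in encapsome skin. The 9 fibroblast genes also all fell, with summed levels of 2370 to 4505 CPM in clodrosome skin and 8432 to 9977 CPM in encapsome skin. Keratinocyte genes were abundant in every library: the 7 basal keratinocyte genes summed to 23653 to 24052 CPM in clodrosome skin and 16137 to 20073 CPM in encapsome skin. In bulk tissue, fewer cells of a type and less RNA per cell cannot be told apart.

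Of the 7 chemokines, 4 were higher in clodrosome skin (Cxcl1, Cxcl2, Ccl3 and Ccl4), 1 was lower (Cxcl5), and 2 did not pass the test (Cxcl3 and Ccl20). All 7 passed the filter on low counts. The test was edgeR's quasi-likelihood test with Benjamini-Hochberg adjustment over the 17988 genes tested, at an adjusted p of 0.05. Across all of those genes 22.4% were called, 9.41% higher and 13.0% lower, and the median log2 fold change was 0.01. The chemokine that moved most upward was Cxcl2 and the one that moved most downward was Cxcl5; both share a gene cluster and a receptor.

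**Figure D1:**
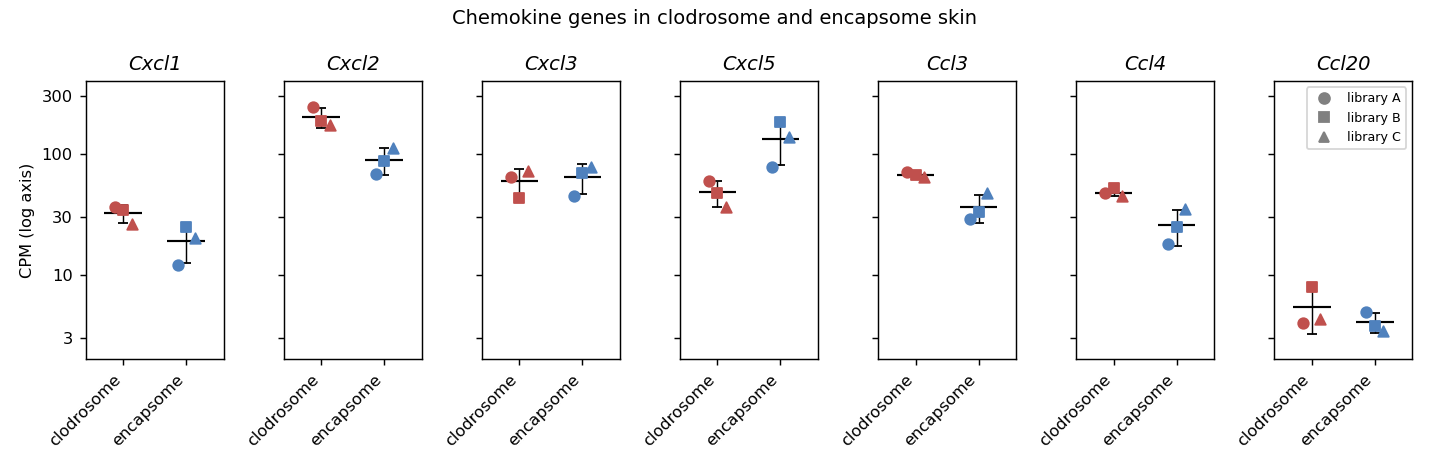
Level of each chemokine gene in CPM (log axis) in the 3 clodrosome libraries (left, red) and the 3 encapsome libraries (right, blue) of its panel; points are libraries, the horizontal line is the mean and the bar the SD. Cxcl1, Cxcl2, Ccl3 and Ccl4 sit higher in all 3 clodrosome libraries, Cxcl5 sits lower in all 3, and the groups overlap for Cxcl3 and Ccl20.

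Cxcl2, also called MIP-2, is made early by macrophages, neutrophils and other cells and draws neutrophils through CXCR2. The gene (ENSMUSG00000058427) lies on chromosome 5 at 90903871 to 90905938, plus strand, in GRCm38. It was at 242, 188 and 173 CPM in clodrosome A, B and C, against 67.5, 87.4 and 112 CPM in encapsome A, B and C. Every clodrosome library lay above every encapsome library, as for 19.5% of all tested genes. The means were 201 ± 36.7 CPM in clodrosome skin and 88.9 ± 22.3 CPM in encapsome skin (SD, n = 3 each), a 2.26-fold difference. The log2 fold change was 1.18 ± 0.182 (SE), with an edgeR adjusted p of 0.00200.

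Cxcl1, the keratinocyte-derived chemokine KC, is induced in keratinocytes, fibroblasts and endothelium by interleukin-1, TNF and interleukin-17. Its gene (ENSMUSG00000029380) lies at 90891241 to 90893115 on the same chromosome and strand as Cxcl2. Its levels were 36.0, 34.3 and 26.3 CPM in clodrosome A, B and C, against 11.9, 24.7 and 20.2 CPM in encapsome A, B and C. The groups did not overlap, but clodrosome C lay close to encapsome B. The log2 fold change was 0.77 ± 0.228 (SE), a 1.70-fold difference, with an edgeR adjusted p of 0.0398. This call depended on single libraries: the adjusted p was 0.105 without clodrosome A, 0.0768 without clodrosome B, 0.0550 without encapsome A and 0.0892 without encapsome C.

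Cxcl3, a close relative of Cxcl2, did not pass the test. Its gene (ENSMUSG00000029379) lies at 90786103 to 90789600 on chromosome 5, plus strand. Cxcl3 was at 63.8, 43.3 and 72.4 CPM in clodrosome A, B and C, against 44.4, 69.6 and 78.3 CPM in encapsome A, B and C. The 2 groups overlapped across most of their range. The log2 fold change was -0.10 ± 0.221 (SE; 95% interval -0.59 to 0.40; edgeR adjusted p = 0.797), and its sign turned when clodrosome B or encapsome C was left out. The interval does not reach the 1.18 of Cxcl2. Of the stretches of 50 bases in the longest coding transcript of Cxcl3, 6.31% also occur in Cxcl2. Of those in the longest coding transcript of Cxcl2, 3.37% occur in Cxcl3. Few reads of these transcripts could thus be lost or swapped between the 2 genes. The Cxcl3 transcript compared has 1016 bases, and the rest of the 3498 bases counted for the gene was not compared.

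Cxcl5, also called LIX, is made by epithelial cells, among others, and also acts on CXCR2. The gene (ENSMUSG00000029371) lies at 90759360 to 90761624 on chromosome 5, plus strand. It was at 59.9, 47.7 and 36.4 CPM in clodrosome A, B and C, against 78.4, 183 and 137 CPM in encapsome A, B and C. Each clodrosome library was below each encapsome library, as for 20.7% of all tested genes, and the encapsome libraries differed more among themselves. The means were 48.0 ± 11.7 CPM in clodrosome skin and 133 ± 52.3 CPM in encapsome skin (SD, n = 3 each). Cxcl5 was thus 2.76-fold lower, with a log2 fold change of -1.46 ± 0.278 (SE) and an edgeR adjusted p of 0.00559.

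Ccl3 and Ccl4 are neighbours on chromosome 11, transcribed away from each other, and rose by nearly the same fold. Ccl3 (ENSMUSG00000000982; 83647844 to 83649355, minus strand) was at 70.2, 66.3 and 64.7 CPM in clodrosome A, B and C, against 28.9, 33.0 and 47.0 CPM in encapsome A, B and C. Ccl4 (ENSMUSG00000018930; 83662584 to 83664683, plus strand) was at 47.0, 51.6 and 44.8 CPM in clodrosome A, B and C, against 17.9, 24.8 and 34.8 CPM in encapsome A, B and C. For both genes the clodrosome libraries lay close together, the encapsome libraries spread from A to C, and the groups did not overlap. The log2 fold change was 0.89 ± 0.154 for Ccl3 (SE; adjusted p by edgeR = 0.00360) and 0.89 ± 0.194 for Ccl4 (SE; adjusted p by edgeR = 0.0107). Their pair spans 16.8 kb with no other gene of the table in it. Per length, Ccl3 was 1.29, 1.11 and 1.24 times Ccl4 in clodrosome A, B and C, and 1.39, 1.15 and 1.17 times Ccl4 in encapsome A, B and C, so that the 2 groups' ratios overlapped.

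Ccl20, the CCR6 ligand that keratinocytes make under interleukin-17 and TNF, was the least abundant of the 7. Its gene (ENSMUSG00000026166) lies on chromosome 1 at 83116766 to 83119167, plus strand. Ccl20 was at 4.01, 7.89 and 4.26 CPM in clodrosome A, B and C, against 4.94, 3.79 and 3.43 CPM in encapsome A, B and C. Clodrosome B alone lay above all encapsome libraries. The log2 fold change of 0.39 ± 0.274 (SE; 95% interval -0.23 to 1.005) did not pass the test, with an edgeR adjusted p of 0.356, and it was 0.03 without clodrosome B. Values this low rest on 90 to 479 counts per library.

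**Figure D2:**
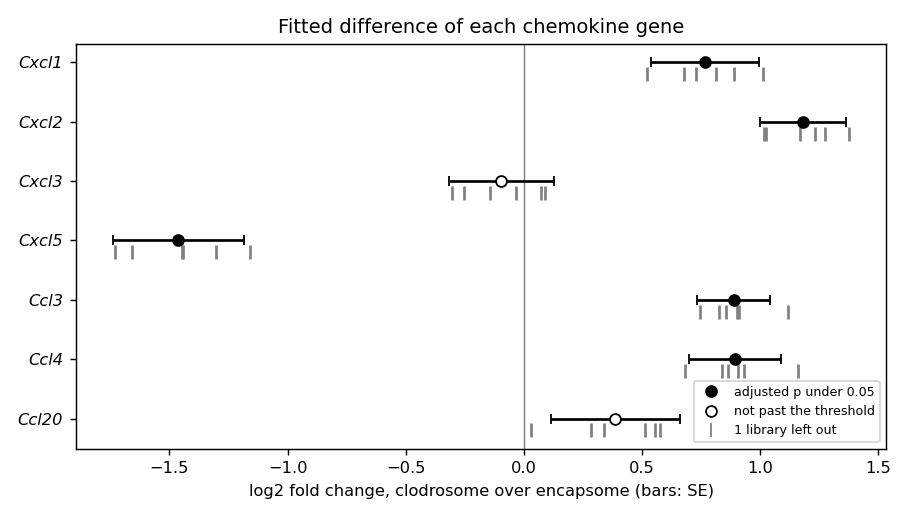
Log2 fold change of each chemokine gene, clodrosome over encapsome, with all 6 libraries and with 1 library left out at a time; bars on the full fit are SE. Cxcl2, Ccl3, Ccl4 and Cxcl5 keep their sign and call throughout, Ccl4 only narrowly without encapsome B (edgeR adjusted p = 0.0495). Cxcl1 keeps its sign only, Cxcl3 lies on both sides of 0, and Ccl20 lies between 0.03 and 0.58 without passing.

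The libraries of a group ranked alike across several of the genes. Encapsome A was the lowest encapsome library for 6 of the 7 chemokines, all but Ccl20, and clodrosome C the lowest clodrosome library for 5, all but Cxcl3 and Ccl20. The share of counts from ribosomal RNA genes divided the libraries across the groups: it was 0.355% and 0.334% in clodrosome A and C and 0.481% in encapsome A, and 0.796% in clodrosome B and 0.845% and 0.788% in encapsome B and C. With this split as a term in the edgeR fit, the same 4 genes were called higher and Cxcl5 lower, with log2 fold changes of 0.99 for Cxcl1, 1.27 for Cxcl2, 0.97 for Ccl3, 1.07 for Ccl4 and -1.21 for Cxcl5.

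Levels of different genes were compared as TPM, in which counts are divided by gene length and then scaled to the same total in each library. In clodrosome skin the order was Cxcl2 at 263 ± 59.1 TPM, Ccl3 at 236 ± 21.1, Ccl4 at 194 ± 7.49, Cxcl5 at 69.5 ± 19.1, Cxcl3 at 46.4 ± 13.6, Cxcl1 at 46.1 ± 7.85 and Ccl20 at 10.04 ± 3.36 TPM (SD, n = 3). In encapsome skin it was Cxcl5 at 185 ± 71.5 TPM, Ccl3 at 123 ± 30.4, Cxcl2 at 112 ± 26.3, Ccl4 at 101.7 ± 31.9, Cxcl3 at 47.6 ± 12.4, Cxcl1 at 26.2 ± 8.74 and Ccl20 at 7.45 ± 1.59 TPM (SD, n = 3). Cxcl5 therefore headed the encapsome order and stood behind Cxcl2, Ccl3 and Ccl4 in clodrosome skin. The library ranges of neighbours overlapped for Cxcl2 and Ccl3, Cxcl5 and Cxcl3, and Cxcl3 and Cxcl1 in clodrosome skin. In encapsome skin the ranges were apart only between Ccl4 and Cxcl3 and between Cxcl1 and Ccl20. Cxcl1 and Cxcl3 have table lengths of 1875 and 3498 bases, which join the exons of all their transcripts, against 953 and 1016 bases for the coding transcript, so their TPM are on the low side.

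Because the 4 CXC members act on 1 receptor, their TPM were also summed. Ppbp, the gene of another CXCR2 ligand, was not part of this sum, which is therefore not that of all CXCR2 ligands. Ppbp averaged 20.9 ± 10.6 CPM in clodrosome skin and 43.8 ± 7.13 CPM in encapsome skin (SD, n = 3 each). The sum of the 4 members was 527, 369 and 378 TPM in clodrosome A, B and C, against 249.1, 450 and 413 TPM in encapsome A, B and C, and the groups overlapped. The make-up of the sum differed. Cxcl2 gave 62.8%, 61.8% and 60.6% of it in clodrosome A, B and C, against 34.8%, 24.4% and 33.7% in encapsome A, B and C. Cxcl5 gave 17.2%, 17.4% and 14.2% in clodrosome A, B and C, against 44.9%, 56.6% and 45.7% in encapsome A, B and C. Per length there were 3.65, 3.56 and 4.27 Cxcl2 transcripts for each Cxcl5 transcript in clodrosome A, B and C, and 0.775, 0.430 and 0.736 in encapsome A, B and C. Among these 4 genes, Cxcl2 was thus the leading transcript in each clodrosome library and Cxcl5 in each encapsome library. Cxcl1 gave 10.95 ± 1.27% in clodrosome skin and 7.02 ± 0.498% in encapsome skin, and Cxcl3 gave 11.1 ± 3.497% in clodrosome skin and 13.0 ± 1.32% in encapsome skin (SD, n = 3 each). With coding transcript lengths, Cxcl2 gave 46.6 ± 2.96% in clodrosome skin and 22.8 ± 3.94% in encapsome skin, and Cxcl5 gave 13.1 ± 2.02% in clodrosome skin and 38.5 ± 5.71% in encapsome skin (SD, n = 3 each).

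**Figure D3:**
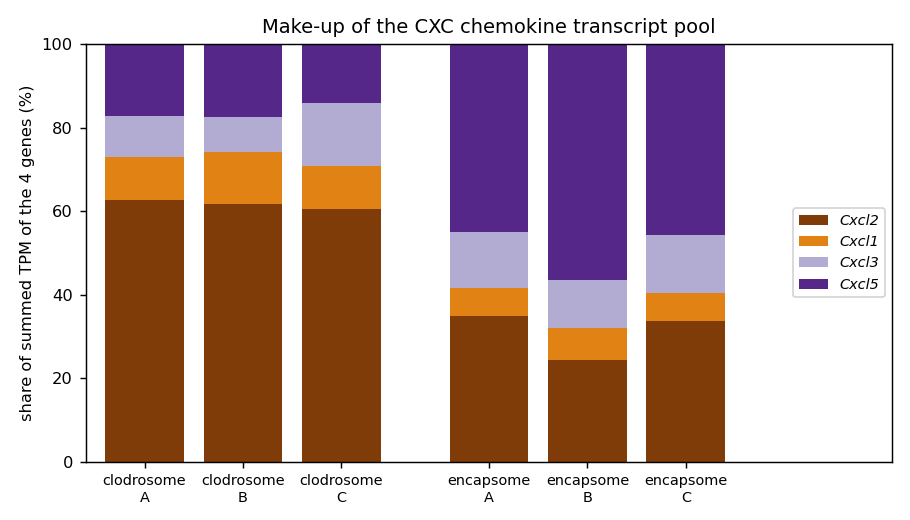
Share of the summed TPM of Cxcl1, Cxcl2, Cxcl3 and Cxcl5 that each gene gives, in percent, as stacked bars from 0 for the 3 clodrosome libraries (left) and the 3 encapsome libraries (right). Cxcl2 gives over 60% of each clodrosome bar, and Cxcl5 is the tallest part of each encapsome bar.

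The 4 CXC genes lie on the plus strand of 1 cluster of chromosome 5, 146.6 kb from the start of Cxcl5 to the end of Cxcl2. Between them lie Ppbp, the gene of the platelet-derived CXCR2 ligand CXCL7, and Pf4, the gene of platelet factor 4, which was named after its value was seen. The fold changes ran along the cluster: Cxcl5, Ppbp and Pf4, which start within 13.08 kb of each other, were lower in clodrosome skin, and Cxcl1 and Cxcl2, which start 131.88 and 144.51 kb from the start of Cxcl5, were higher. Ppbp had a log2 fold change of -1.06 ± 0.310 (SE; adjusted p by edgeR = 0.0369), and Pf4 one of -1.74 ± 0.243 (SE; adjusted p by edgeR = 0.00119). Pf4 was at 82.1, 41.4 and 90.7 CPM in clodrosome A, B and C, against 212, 264 and 242 CPM in encapsome A, B and C. The Ppbp call was lost without clodrosome A (adjusted p = 0.0845), encapsome A (0.0578), encapsome B (0.132) or encapsome C (0.0807). Cxcl15, which encodes the mouse chemokine lungkine, lies between Cxcl3 and Cxcl1 and was near 0 in every library.

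**Figure D4:**
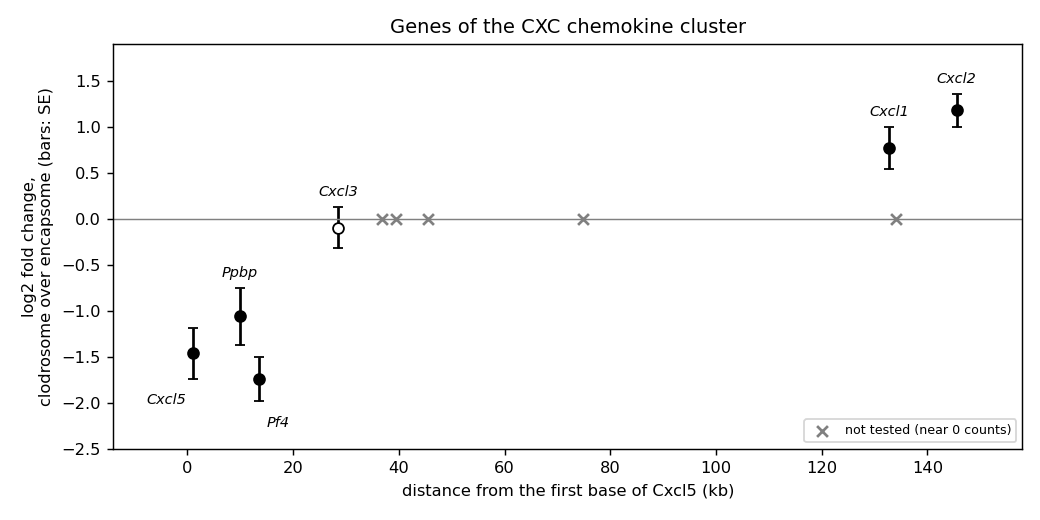
Log2 fold change (bars: SE), clodrosome over encapsome, of the genes of the CXC cluster against distance in kb from the first base of Cxcl5; filled points passed the test, the open point did not, and crosses are genes too low to test. Genes at the Cxcl5 end lie below 0, Cxcl3 lies next to 0, and Cxcl1 and Cxcl2 at the far end lie above 0.

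Promoter sequence was at hand for 5 of the 7 genes and is shown because Cxcl1, Cxcl2 and Cxcl3 carry the same 11 letters at a like place while of these 3 only Cxcl1 and Cxcl2 were called higher. Each line is the 120 bases before the RefSeq start on the gene's strand, in GRCm38.p6, with the letters GGGAATTTCCC in capitals. These are the longest stretch common to the 3 CXC windows and contain a form of the NF-kB recognition sequence. They were looked for on both strands, after the promoters had been seen. The windows are chr5:90903779-90903898 for Cxcl2, chr5:90891125-90891244 for Cxcl1, chr5:90785981-90786100 for Cxcl3, chr11:83649379-83649498 for Ccl3 (minus strand) and chr1:83116646-83116765 for Ccl20.
Cxcl2: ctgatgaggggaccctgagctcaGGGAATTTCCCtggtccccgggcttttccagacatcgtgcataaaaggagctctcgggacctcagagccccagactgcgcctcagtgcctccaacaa
Cxcl1: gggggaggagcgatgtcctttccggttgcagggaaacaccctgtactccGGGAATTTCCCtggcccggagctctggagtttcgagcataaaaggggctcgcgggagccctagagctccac
Cxcl3: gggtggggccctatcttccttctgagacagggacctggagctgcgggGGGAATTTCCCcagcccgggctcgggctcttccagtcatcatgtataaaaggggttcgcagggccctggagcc
Ccl3: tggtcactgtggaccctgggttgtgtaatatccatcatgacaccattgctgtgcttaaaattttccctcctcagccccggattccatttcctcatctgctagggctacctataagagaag
Ccl20: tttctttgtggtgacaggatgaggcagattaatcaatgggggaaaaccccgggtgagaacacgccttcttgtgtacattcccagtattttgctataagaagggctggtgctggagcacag

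The letters begin 97 bases before the start in Cxcl2, 71 in Cxcl1 and 73 in Cxcl3, and are absent from the Ccl3 and Ccl20 windows. The Cxcl2 window ends at 90903898, whereas the counted gene begins at 90903871, so the end of that window lies inside the counted gene. Measured from the counted start, the letters in Cxcl2 lie closer than 97 bases. The same letters occur in the same window of 7 of 27025 RefSeq promoters, or 0.0259%. Of these 7 genes only Cxcl1, Cxcl2 and Cxcl3 were tested. The others either did not pass the filter on low counts or were not among the genes counted. The core promoter letters TATAAAA begin 30 bases before the start of Cxcl3 and are in 2.66% of windows. Only this exact form was looked for. The Cxcl1 and Cxcl2 windows hold the near form cataaaa, and those of Ccl3 and Ccl20 hold tataaga, so such letters are not particular to Cxcl3. Letters in a window do not show that a factor bound there.

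The other listed chemokines of the cluster and of the inflammatory CC family mostly moved the opposite way from Cxcl2, Ccl3 and Ccl4. The list does not cover the whole cluster or family. Of the 6 tested of 7 listed, 1 was higher and 4 lower, with a median log2 fold change of -1.13. DESeq2 called 3 lower, and the Ppbp call, given above, was lost in 4 of the 6 fits with a library left out. Ccl6 and Ccl9, mouse CCR1 ligands that macrophages make in quantity, averaged 385 ± 73.7 and 191 ± 22.4 CPM in clodrosome skin, against 1210 ± 87.2 and 441 ± 68.1 CPM in encapsome skin (SD, n = 3 each). Their log2 fold changes were -1.65 ± 0.137 (SE; adjusted p by edgeR = 1.07e-04) and -1.20 ± 0.128 (SE; adjusted p by edgeR = 3.02e-04). Ccl8, a monocyte chemoattractant, fell most, to 149 ± 60.6 CPM in clodrosome skin, against 618 ± 81.5 CPM in encapsome skin (SD, n = 3 each), with a log2 fold change of -2.05 ± 0.276 (SE; adjusted p by edgeR = 9.85e-04). Ccl5, the T cell-associated ligand RANTES, rose, at 7.90 ± 1.23 CPM in clodrosome skin and 2.44 ± 0.167 CPM in encapsome skin (SD, n = 3 each), with a log2 fold change of 1.69 ± 0.167 (SE; adjusted p by edgeR = 2.23e-04). Ccl7 had a log2 fold change of -0.41 (edgeR adjusted p = 0.134).

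Among 6 receptors and scavengers of these ligands 1 was higher and 1 lower, against 9.41% higher and 13.0% lower of all tested genes. With DESeq2, with limma-voom and with no filter on low counts, 2 were higher. Cxcr2, the receptor of all 4 CXC ligands, was at 63.2, 87.6 and 54.4 CPM in clodrosome A, B and C, against 59.3, 113 and 68.9 CPM in encapsome A, B and C. The groups overlapped, and the log2 fold change was -0.24 ± 0.239 (SE; 95% interval -0.77 to 0.30; edgeR adjusted p = 0.527). Cxcr1 was low, at 2.13 ± 0.765 CPM in clodrosome skin and 2.03 ± 0.374 CPM in encapsome skin (SD, n = 3 each), with an edgeR adjusted p of 0.956. Ccr1, a receptor of CCL3, fell, with a log2 fold change of -0.63 ± 0.155 (SE; adjusted p by edgeR = 0.0191), and its call was lost without clodrosome C (adjusted p = 0.0720), encapsome B (0.0731) or encapsome C (0.0656). Ccl3 and its receptor Ccr1 thus had fold changes of opposite sign. Ccr6, the receptor of CCL20, was close to the detection floor at 0.346 ± 0.213 CPM in clodrosome skin and 0.616 ± 0.209 CPM in encapsome skin (SD, n = 3 each; edgeR adjusted p = 0.257). Ackr1, which carries chemokines across venular endothelium, rose to 21.3 ± 1.37 CPM in clodrosome skin, against 13.2 ± 1.71 CPM in encapsome skin (SD, n = 3 each; edgeR adjusted p = 0.00316). Ackr2, a scavenger of inflammatory CC chemokines, had a log2 fold change of 0.71 ± 0.241 (SE; adjusted p by edgeR = 0.0622) and passed without clodrosome B (adjusted p = 0.0416) or encapsome B (0.0223).

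Inflammatory cytokines, among them inducers of these chemokines, were partly higher. Of the 9 that could be tested, 3 rose and the other 6 did not pass. Csf3, the gene of the neutrophil growth factor G-CSF, was at 11.6, 10.6 and 6.39 CPM in clodrosome A, B and C, against 1.74, 3.85 and 2.97 CPM in encapsome A, B and C. Its groups did not overlap, and its log2 fold change was 1.74 ± 0.299 (SE; adjusted p by edgeR = 0.00342). Tnf, an activator of NF-kB, had a log2 fold change of 0.79 ± 0.197 (SE; adjusted p by edgeR = 0.0191), lost without clodrosome A (adjusted p = 0.0576), encapsome A (0.0666) or encapsome B (0.0837). Osm, the gene of oncostatin M, had one of 0.55 ± 0.126 (SE; adjusted p by edgeR = 0.0136). Il1b, the gene of interleukin-1-beta, was at 314, 298 and 221 CPM in clodrosome A, B and C, against 146, 268 and 200 CPM in encapsome A, B and C. Its groups overlapped, with a log2 fold change of 0.44 ± 0.205 (SE; 95% interval -0.02 to 0.90; edgeR adjusted p = 0.157), and it passed without encapsome B (adjusted p = 0.0453). Il1a, Il6, Il36a, Il36g and Ifng had log2 fold changes of 0.10, -0.17, -0.48, 0.16 and -0.69, and adjusted p by edgeR was 0.485, 0.745, 0.104, 0.269 and 0.251 in that order; Il36a passed without encapsome C (adjusted p = 0.0265). Il17a, Il17c, Il17f, Csf2 and Il22 were too low to test, at or under 0.387 CPM in every library.

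On the receiving side, the list of 11 genes joins receptors and adaptors of these cytokines with Toll-like receptor genes, among them Tlr4. Of the 11, 3 were lower and the other 8 did not pass. The lower ones were Tlr4, the endotoxin receptor, at -0.78 on the log2 scale (edgeR adjusted p = 3.79e-04), Il1r1, the signalling interleukin-1 receptor, at -0.77 (edgeR adjusted p = 0.00297), and Il17ra at -0.52 (edgeR adjusted p = 0.0189). The Il17ra call was lost without clodrosome C (adjusted p = 0.0728), encapsome B (0.0731) or encapsome C (0.0590).

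Of 15 genes of the NF-kB family and its feedback loop, 6 were higher and the other 9 did not pass, with a median log2 fold change of 0.25. Ier3, an immediate early gene, averaged 149 ± 12.4 CPM in clodrosome skin and 92.9 ± 14.6 CPM in encapsome skin (SD, n = 3 each), with a log2 fold change of 0.68 ± 0.115 (SE; adjusted p by edgeR = 0.00318). Nfkbiz, which encodes the co-activator I-kappa-B-zeta, had a log2 fold change of 0.64 ± 0.117 (SE; adjusted p by edgeR = 0.00467). Tnfaip3, which encodes the NF-kB inhibitor A20, had one of 0.47 (edgeR adjusted p = 0.00822), its partner Tnip1 one of 0.44 (edgeR adjusted p = 0.0118), and Nfkbia one of 0.54 ± 0.122 (SE; adjusted p by edgeR = 0.0122). The call of the sixth, Traf1, was lost without clodrosome B (adjusted p = 0.0562), encapsome A (0.0927) or encapsome C (0.0814). None of 8 genes of mRNA decay, which shortens the life of chemokine transcripts, was called by edgeR at an adjusted p of 0.05, nor by DESeq2 or limma-voom; 1 was called higher by edgeR with no filter on low counts and 1 with the ribosomal RNA split, and 2 of the 8 had an unadjusted p under 0.05, against 35.8% of all tested genes. Of 7 negative regulators 2 were lower, Il18bp, which binds interleukin-18, and Il10, against 13.0% lower of all tested genes. They were at -0.77 (edgeR adjusted p = 0.00328) and -1.09 (edgeR adjusted p = 0.0224) on the log2 scale. The Il10 call was lost without clodrosome C (adjusted p = 0.0672), encapsome A (0.0698) or encapsome B (0.0802).

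Genes of neutrophils, the cells that CXCR2 ligands draw, were partly higher in clodrosome skin. Of 18 listed, 15 were tested, 5 were higher and 10 did not pass, with a median log2 fold change of 0.43. The count called higher was 8 with DESeq2, with no filter on low counts and with the ribosomal RNA split. Their summed level was 2596 to 3518 CPM in clodrosome skin and 1392 to 2084 CPM in encapsome skin. Much of this sum came from Lcn2, S100a8 and S100a9. S100a8 and S100a9 averaged 518 and 828 CPM in clodrosome skin, against 383 and 615 CPM in encapsome skin. With all libraries they did not pass (edgeR adjusted p = 0.111 and 0.124), and S100a8 passed without encapsome B (0.0340). Lcn2, the gene of an iron-binding protein of neutrophil granules that keratinocytes also make, was at 903, 1298 and 1005 CPM in clodrosome A, B and C, against 280.0, 334 and 355 CPM in encapsome A, B and C. Without Lcn2, which was left out after the values were seen, the list summed to 1693, 2220 and 1602 CPM in clodrosome A, B and C, against 1112, 1750 and 1365 CPM in encapsome A, B and C, and the groups overlapped. Its log2 fold change was 1.72 ± 0.147 (SE; adjusted p by edgeR = 1.23e-04), and that of Retnlg, a neutrophil-enriched resistin-like gene, was 2.07 ± 0.230 (SE; adjusted p by edgeR = 3.66e-04). Acod1, which makes itaconate in activated myeloid cells, had a log2 fold change of 1.37 ± 0.237 (SE; adjusted p by edgeR = 0.00355). Ly6g, the defining surface marker of mouse neutrophils, was low, at 0.837, 1.22 and 1.16 CPM in clodrosome A, B and C, against 0.484, 0.250 and 0.305 CPM in encapsome A, B and C (log2 fold change 1.59 ± 0.361, SE; edgeR adjusted p = 0.0128), and its call was lost without encapsome B (adjusted p = 0.0572). Stfa2l1 was the fifth called. Csf3r, the G-CSF receptor, and the granule proteases Mmp8 and Mmp9 did not pass, with log2 fold changes of -0.21, -0.32 and -0.08 and adjusted p by edgeR of 0.442, 0.199 and 0.829 in that order. The granule genes Ngp, Elane and Mpo were too low to test, at or under 0.519 CPM in every library. Whether the neutrophil genes bear on the chemokine levels was not tested.

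Adhesion genes of inflamed venules, through which neutrophils leave the blood, were higher in 3 of 5 cases. Selp, the gene of P-selectin, was at 154, 119 and 98.1 CPM in clodrosome A, B and C, against 14.4, 25.8 and 22.8 CPM in encapsome A, B and C. Its groups did not overlap, and its log2 fold change was 2.56 ± 0.223 (SE; adjusted p by edgeR = 1.33e-04). Sele, the gene of E-selectin, averaged 47.9 ± 3.88 CPM in clodrosome skin and 21.2 ± 5.45 CPM in encapsome skin (SD, n = 3 each; log2 fold change 1.18 ± 0.168, SE; edgeR adjusted p = 0.00135). Ackr1, given above, was the third. General endothelial genes were partly higher too: 3 of 6 were called (Pecam1, Kdr and Emcn) and the other 3 did not pass. The list summed to 522 to 579 CPM in clodrosome skin and 383 to 437 CPM in encapsome skin. The Emcn call was lost without clodrosome C (adjusted p by edgeR = 0.0542), encapsome A (0.0617) or encapsome C (0.0597). The part of the endothelial genes in the venule values was not tested.

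Other cell types that can make these chemokines differed between the groups as well, and their part in the chemokine values was not tested. Of 9 genes of activated keratinocytes 6 were higher and 1 lower, with summed levels of 20232 to 22115 CPM in clodrosome skin and 15119 to 18003 CPM in encapsome skin. Only 3 were higher without encapsome B, where Krt6a, Krt16 and S100a7a were lost, and the gene called lower, Serpinb3a, overlapped between the groups and was lost in 4 of the 6 fits with a library left out. Of 7 genes of differentiated keratinocytes 4 were lower (Krt1, Krt10, Lor and Flg) and the other 3 did not pass, with a median log2 fold change of -1.10. Of 6 mast cell genes 5 were lower, with summed levels of 192 to 263 CPM in clodrosome skin and 384 to 455 CPM in encapsome skin. Of 8 monocyte genes 1 was higher and 2 lower, against 9.41% higher and 13.0% lower of all tested genes. Their summed levels were 673 to 850 CPM in clodrosome skin and 712 to 961 CPM in encapsome skin, which overlapped. The part of the macrophage and fibroblast genes, which fell, was not tested either.

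**Figure D5:**
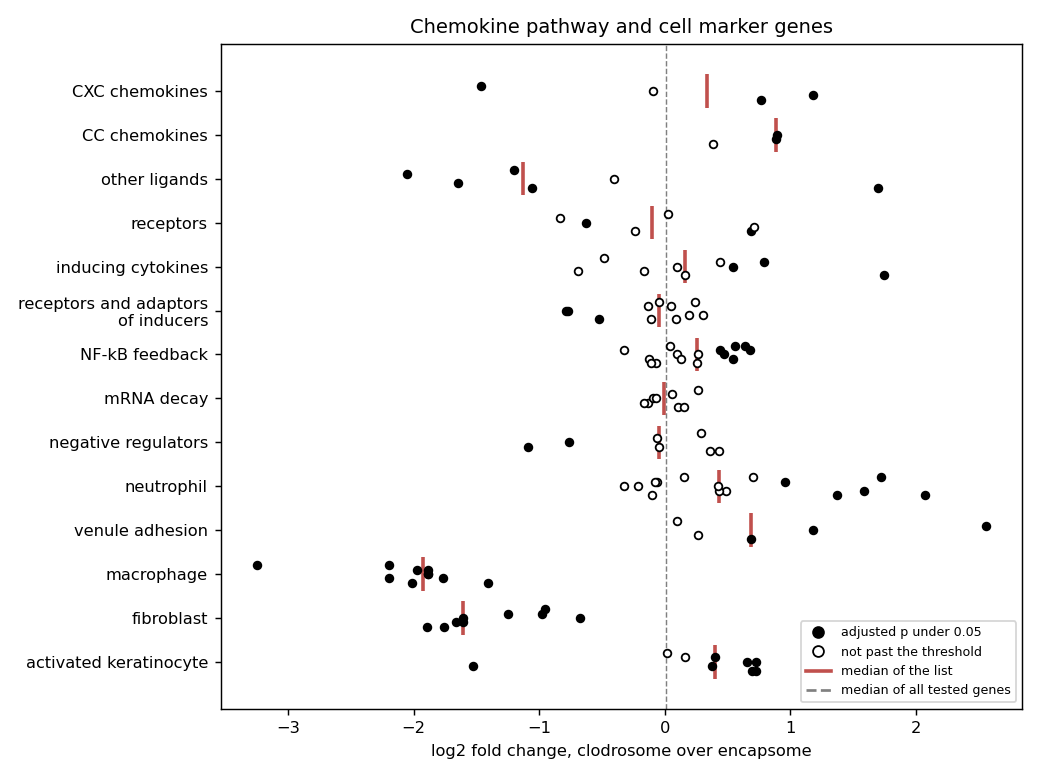
Log2 fold change, clodrosome over encapsome, of each tested gene of the chemokine set, its pathway and cell marker lists; filled points passed the test, open points did not, the red line is the list's median and the dashed line the median of all tested genes. The CC chemokines, neutrophil and venule lists have medians above 0, and the macrophage and fibroblast lists lie wholly below 0.

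By Pearson correlation of log2 CPM over the 6 libraries, among 13716 genes, the genes most like Cxcl2 were Tfcp2l1 (r = 0.998), Jmjd6 (r = 0.997) and Map6 (r = 0.994). Those most like Ccl3 were Cage1 (r = 0.996), Msantd2 (r = 0.996) and Tnfaip3 (r = 0.995). Tfcp2l1 (edgeR adjusted p = 0.0142), Map6 (0.00316) and Tnfaip3 (0.00822) were higher in clodrosome skin. The Tfcp2l1 call was lost without clodrosome A (adjusted p = 0.0600) or encapsome B (0.0517). Jmjd6 (edgeR adjusted p = 0.0537), Cage1 (0.0825) and Msantd2 (0.0939) did not pass the test. Among the 7 chemokines, r with Cxcl2 was 0.98 for Ccl3, 0.95 for Ccl4, 0.88 for Cxcl1, 0.23 for Ccl20, 0.11 for Cxcl3 and -0.64 for Cxcl5. These values are descriptions: the libraries fall into 2 treatment groups, so any gene that differs between the groups correlates with another that does.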

How the data were processed

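Polyadenylated RNA from whole skin was sequenced as paired ends from stranded libraries on a NovaSeq 6000, per the labels' protocols. The table holds the counts of reads per gene that the authors made and deposited, with featureCounts 1.6.2 on Ensembl 102 of GRCm38, per the file headers. The submitters' processing notes also name Trimmomatic 0.36, HISAT2 2.2.1, StringTie 2.2.1, DESeq2 1.34.0 and mm10. The command sets no option for pairs or strand. Of counts from 1 to 20, 63.6% to 69.7% were even, so both ends of a fragment appear to have been counted. An antisense gene could share reads. No exon base of the chemokine genes described here, however, lies in an exon of another counted gene on either strand.

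Of the identifiers, 55141 had a symbol in the GENCODE vM21 and RefSeq tables; GENCODE lists Il36a and Il36g as Il1f6 and Il1f9. From the counts, edgeR 4.0.16 (R 4.3.3) gave TMM-normalised CPM and the quasi-likelihood test, for the 17988 genes that filterByExpr kept (count at least 10, total at least 15); TMM factors were 0.982 to 1.02. TPM used the table's gene lengths. The floor that a count of 0 allows, 3 fragments or 6 counts, was 0.0502 to 0.228 CPM and covers counting error only. Scripts were tested on simulated data. Alternatives were DESeq2 1.42.0, limma-voom (limma 3.58.1), other scalings, no filter, halved or thinned counts, the ribosomal RNA split and each library left out; coding transcript length was added after seeing the data. The members and gene lists were chosen with earlier results of these data known. All members are named, and from each list up to 4 genes with the smallest p, plus every gene given here of the lists of chemokine receptors, other ligands and inflammatory cytokines. Further genes (Pf4, Nfkbia, Traf1, S100a8, S100a9, Stfa2l1, Csf3r, Mmp8, Mmp9, the untested granule genes, Krt16, S100a7a and Serpinb3a) were named after their values were seen. A gene of the lists is not reported here.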

Additional observations from a re-analysis of the deposited data

How the results depend on the processing

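With all 6 libraries, 4 chemokines were higher and 1 lower by edgeR, and DESeq2, limma-voom, DESeq2 size factors, library totals alone, no filter, halved counts, the deepest library thinned to the next-deepest and the ribosomal RNA split gave the same 4 and 1. Leaving out 1 library at a time left 3 or 4 higher and 1 lower. Over those fits the log2 fold change was 0.52 to 1.01 for Cxcl1, 1.01 to 1.38 for Cxcl2, -1.73 to -1.16 for Cxcl5, 0.75 to 1.12 for Ccl3, 0.68 to 1.16 for Ccl4 and 0.03 to 0.58 for Ccl20. For Cxcl1 it no longer passed without clodrosome A (0.68), clodrosome B (0.73), encapsome A (0.52) or encapsome C (0.81). The Ccl4 call held only narrowly without encapsome B (edgeR adjusted p = 0.0495). For Cxcl3 the range was -0.30 to 0.09, with the sign turned without clodrosome B (0.090) and without encapsome C (0.071). The number of genes that differed was 4035 with all libraries and 2477 to 4396 with 1 left out, lowest without encapsome B and 2642 without clodrosome C. With coding transcript length, the rank by level in clodrosome skin became 5 for Cxcl1, 4 for Cxcl3 and 6 for Cxcl5, and in encapsome skin 2 for Cxcl3, 4 for Ccl3 and 5 for Ccl4. As CPM not scaled to length, it became 3 for Cxcl3 and 5 for Ccl4 in clodrosome skin, and 2 for Cxcl2, 3 for Cxcl3, 4 for Ccl3 and 5 for Ccl4 in encapsome skin. Of 560 counts of list genes under the alternatives, 518 were within 1.5 times the count with all libraries. With no filter and with the ribosomal RNA split, 2 negative regulators and 3 monocyte genes were called higher, against 0 and 1 in the edgeR fit. The cause of these changes was not tested beyond there being fewer libraries. No paired analysis was possible because the column names do not carry the replicate numbers of the labels.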
